A study of Rattus norvegicus with 8 samples.

Results

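The 8 genes described here encode proteins of the myelin sheath of peripheral nerve. They are Mbp, Pmp22, Pmp2, Mal, Mag, Prx, Cnp and Cldn19, chosen by name from 32545 Ensembl genes, of which 22798 had a read in at least 1 library. They were examined in bulk RNA-seq of rat sciatic nerve, in 8 libraries that are each from 1 animal. PEG-fused peripheral nerve allografts (PEG, n = 3) and negative control allografts (NC, n = 3) came from donors that were not tissue-matched, were placed in hosts given no immunosuppression and were excised at 14 days post-operatively (PO). Polyethylene glycol (PEG), which joins cut axonal membranes, was applied in the PEG group and left out in the NC group, whereas hypotonic saline and methylene blue were applied in both. Unoperated sciatic nerves (Unop, n = 2) were the baseline. All animals were female Sprague Dawley (Envigo) rats, an outbred stock, of 3 to 6 months of age, and a graft holds cells of the donor together with cells that entered from the host. The question addressed is how the transcripts of myelin proteins stood in grafts joined with PEG, in grafts joined without it and in intact nerve.

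Myelin is the wrapped and flattened membrane of the Schwann cell. Where its layers are pressed together it is called compact, and MBP (which binds the inner faces of the membrane to each other), PMP22 (a membrane-spanning protein), PMP2 (a fatty acid binding protein) and MAL (a proteolipid of lipid-rich membrane domains) belong to this portion or to its assembly. Where cytoplasm remains, it is called non-compact, and MAG (an adhesion molecule facing the axon), periaxin (Prx, which ties the outer Schwann cell membrane to the basal lamina), CNP (an enzyme of the cytoplasmic channels) and claudin 19 (Cldn19, a tight junction protein) are found there. A Schwann cell that loses contact with its axon is known to lower its myelin genes and take up a repair state, and one that meets a regrowing axon can raise them again.

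Values are normalized read counts, that is, the reads of a gene in a library after division by a size factor of that library. Libraries held 32472925 to 39959620 gene-assigned reads. The defining genes of Schwann cells, S100b, Sox10, Erbb3 and Cdh19 (called pan-Schwann genes below), were present in all 8 libraries, with a summed normalized count between 13160 and 190399. NC 1 stood apart from the other allografts. It held the highest value of the 6 allografts for 7 of the 8 myelin protein genes, beside 17.6% of all tested genes, and also for 5 of 5 skeletal muscle genes and 5 of 6 adipocyte genes. Values with and without it are therefore given. In bulk tissue, fewer Schwann cells and less RNA per Schwann cell cannot be told apart.

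Of the compact myelin genes, Mbp (ENSRNOG00000016516) stood at 708519 and 855747 normalized counts in the Unop nerves. In PEG-fused allografts it stood at 9033, 8335 and 7432, and in NC allografts at 12599, 4296 and 2152. The PEG-fused grafts therefore lay close together, inside the wide range of the NC grafts, and both kinds of graft lay far below intact nerve. Pmp22 (ENSRNOG00000003338), whose duplication causes an inherited neuropathy, gave 739619 and 843732 in Unop nerves, 8056, 8883 and 10963 in PEG-fused grafts and 17163, 5560 and 5035 in NC grafts. Its pattern was the same, with NC 1 above and NC 2 and NC 3 below all PEG-fused grafts.

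Mal (ENSRNOG00000015445) stood at 92909 and 118381 in Unop nerves, at 357, 321 and 486 in PEG-fused grafts and at 2220, 512 and 369 in NC grafts. Here PEG 3 lay between NC 2 and NC 3, PEG 1 and PEG 2 lay below both, and NC 1 alone was high. Pmp2 (ENSRNOG00000022707) gave 94924 and 70597 in Unop nerves, 1479, 841 and 2293 in PEG-fused grafts and 6447, 1142 and 2279 in NC grafts. Apart from NC 1 the allografts overlapped, and Pmp2 was the one gene of the 8 besides Mag with its higher Unop value in Unop 1.

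Of the non-compact myelin genes, Prx (ENSRNOG00000018369) stood at 114029 and 154247 normalized counts in Unop nerves, at 439, 363 and 784 in PEG-fused grafts and at 2665, 515 and 458 in NC grafts. Cldn19 (ENSRNOG00000007922) gave 18843 and 25081, then 131, 108.4 and 265, and then 648, 86.1 and 70.4 in the same order of groups. In both genes NC 1 was the highest and PEG 3 the second highest graft. Mag (ENSRNOG00000021023) stood at 3956 and 3879 in Unop nerves, at 11.1, 13.1 and 61.9 in PEG-fused grafts and at 336, 28.0 and 12.5 in NC grafts. Mag was the gene with the fewest reads, between 12 and 376 in a graft library, and the only one for which a graft reached more than 5 times the level of another graft of its group in both PEG and NC.

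Cnp (ENSRNOG00000017496) did not share this pattern. It stood at 28528 and 36244 in Unop nerves, at 17924, 20224 and 14740 in PEG-fused grafts and at 15259, 12219 and 9583 in NC grafts. All grafts lay below both Unop nerves, but the gap was small, and the PEG-fused grafts overlapped the NC grafts only through PEG 3 and NC 1.

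**Figure D1:**
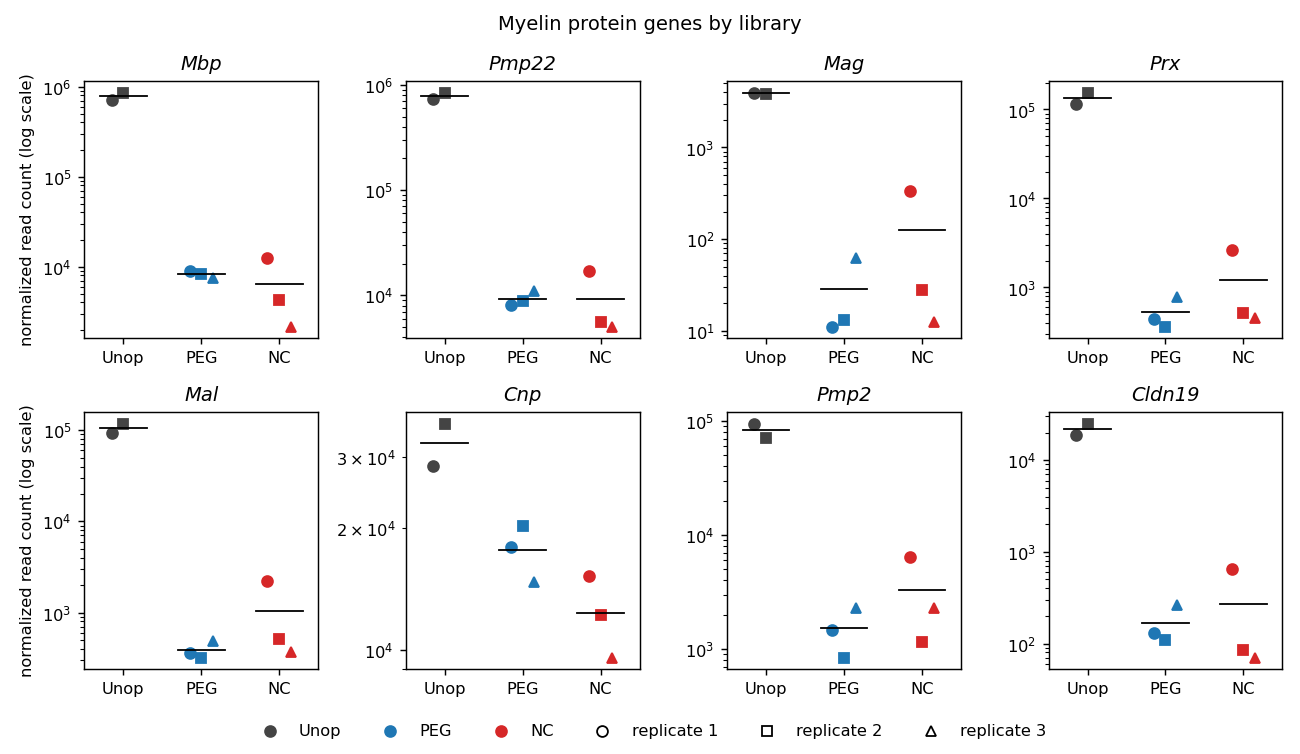
Normalized read counts (log scale, with its own range in each panel) of the 8 myelin protein genes in each library; bars mark group means of 2 Unop, 3 PEG and 3 NC libraries. In 7 panels the grafts sit far below the Unop nerves and NC 1 (red circle) is the highest graft, while Cnp spans only 9583 to 36244.

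All 8 genes fell in PEG-fused grafts against Unop nerves, beside 28.6% of all tested genes that were called lower. A call is an adjusted p under 0.05 by limma on log2(normalized count + 1), with Benjamini-Hochberg adjustment over 16478 tested genes. Mean levels in PEG-fused grafts were 0.367% of the Unop mean for Mal, 0.394% for Prx, 0.733% for Mag, 0.766% for Cldn19, 1.06% for Mbp, 1.18% for Pmp22 and 1.86% for Pmp2. Cnp kept 54.4%. On the log2 scale the strongest decrease was that of Mal, at -8.10 (SE 0.64, limma adjusted p = 1.92e-05), and that of Cnp was -0.88 (SE 0.22, limma adjusted p = 0.00817). Without Unop 2, Cnp was no longer called (log2 fold change -0.71, limma adjusted p = 0.0672). The other 7 genes were below -3, which held for 4.05% of all tested genes, and the median of the 8 was -6.84 beside 0.01 for all genes.

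All 8 genes also fell in NC grafts against Unop nerves, beside 32.3% of all tested genes. NC means were 0.812% of the Unop mean for Mbp, 0.904% for Prx, 0.979% for Mal, 1.17% for Pmp22, 1.22% for Cldn19, 3.20% for Mag and 3.97% for Pmp2, with 38.1% for Cnp. Log2 fold changes ran from -7.32 for Mbp (SE 0.59, limma adjusted p = 1.39e-05) to -1.41 for Cnp (SE 0.22, limma adjusted p = 0.000567). Again 7 genes were below -3, beside 4.79% of all tested genes, and the median was -6.87 beside 0.02. Since NC 1 was the highest NC graft for each gene, the decreases without it were larger for all 8, for example -7.63 for Mag in place of -6.27 and -8.11 for Cldn19 in place of -7.09. Both comparisons use the same 2 Unop nerves and are therefore not independent of each other. No graft overlapped the Unop nerves for any of the 8 genes, which held for 37.2% of tested genes lower in PEG-fused and 37.4% lower in NC grafts.

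**Figure D2:**
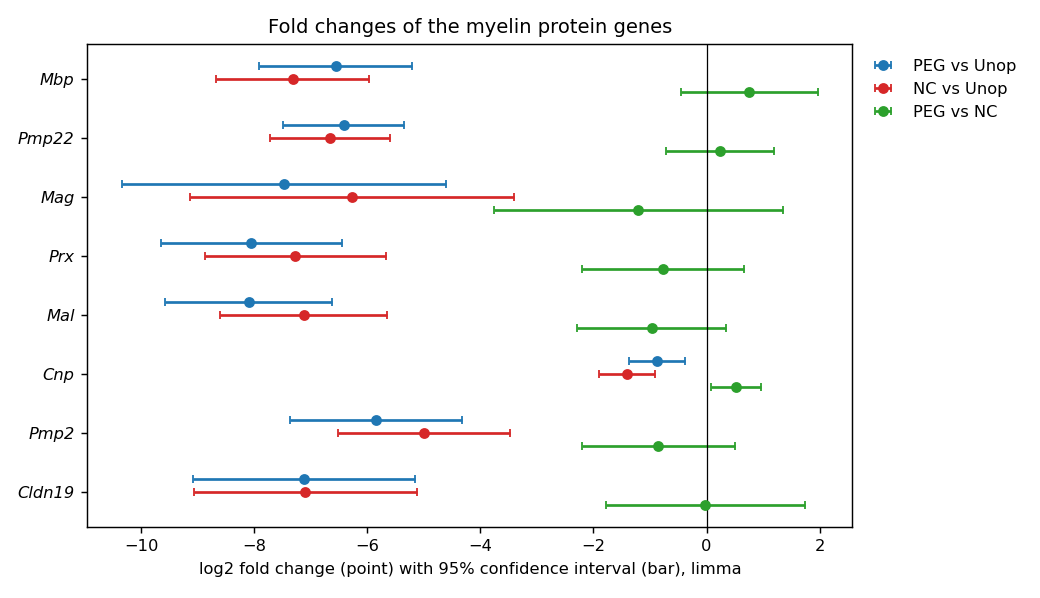
Log2 fold changes of the 8 genes from limma with 95% confidence intervals, for PEG against Unop (blue), NC against Unop (red) and PEG against NC (green). All intervals against Unop lie below 0, with Cnp nearest to it, and 7 of the 8 green intervals include 0.

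The 8 genes make up a visible fraction of the RNA of intact nerve. They held 4.20% (95% Clopper-Pearson interval 4.19 to 4.21) and 5.19% (5.18 to 5.20) of the reads on genes in the Unop nerves. In PEG-fused grafts they held 0.116%, 0.121% and 0.116%, a mean of 0.118% ± 0.00244 (SD, n = 3). In NC grafts the shares were 0.162%, 0.0695% and 0.0602%, a mean of 0.0974% ± 0.0565 (SD, n = 3). PEG-fused grafts lay close together in this summed share, while NC 1 held more than 2 times that of NC 2 or NC 3. Cnp alone held 0.0558%, 0.0624% and 0.0463% in PEG-fused grafts, a large part of the sum, and 0.0432%, 0.0349% and 0.0289% in NC grafts. In Unop nerves it held 0.0665% and 0.0892%, a small part. Single genes could spread more widely within the PEG group than the sum, for example Pmp2 from 841 to 2293 normalized counts. The intervals cover counting error only.

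No myelin protein gene differed between PEG-fused and NC grafts by limma, beside 28.9% of all tested genes called in either direction (15% higher and 13.9% lower), and the groups overlapped for all 8, whereas they did not for 25.6% of tested genes higher and 23.3% lower. At an unadjusted p under 0.05, 1 of the 8 passed, Cnp, beside 6818 of 16478 tested genes. Estimates were above 0 for Cnp (0.53, 95% interval 0.08 to 0.97, limma adjusted p = 0.0751), Mbp (0.75, -0.46 to 1.97, limma adjusted p = 0.315) and Pmp22 (0.24, -0.72 to 1.19, limma adjusted p = 0.707). They were below 0 for Mag (-1.21, -3.77 to 1.35), Mal (-0.97, -2.29 to 0.35), Pmp2 (-0.85, -2.21 to 0.51) and Prx (-0.78, -2.21 to 0.66), with limma adjusted p between 0.238 and 0.450, and that for Cldn19 was -0.02 (-1.78 to 1.74, limma adjusted p = 0.986). These intervals are wide and leave room for differences of 2-fold or more in either direction for Mag and Cldn19. DESeq2 on the recovered reads called Cnp (0.51, DESeq2 adjusted p = 0.0347), 1 of the 7 genes to which it gave an adjusted p (Mag had none). Over all genes DESeq2 called 5540 of 16469. By edgeR 0 of 8 were called, beside 4977 of 16478 genes.

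Without NC 1 the standard errors were smaller for all 8 genes, for example 0.27 in place of 0.53 for Mbp and 0.21 in place of 0.57 for Mal. The level of NC 1 relative to the mean of NC 2 and NC 3 was 16.6 times for Mag, 8.28 for Cldn19, 5.47 for Prx, 5.04 for Mal, 3.91 for Mbp, 3.77 for Pmp2 and 3.24 for Pmp22, against 1.40 for Cnp. For these same 7 genes, all 3 PEG-fused grafts lay below NC 1. Within the PEG group, PEG 3 was the highest for 6 of the 8 genes, beside 32.4% of all tested genes, and stood at 5.11 times the mean of PEG 1 and PEG 2 for Mag and 2.22 times for Cldn19. For Mbp and Cnp, PEG 3 was the lowest.

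NC 1 was set apart by its values for these same genes, among others. Leaving out the highest NC graft raises each estimate of PEG against NC. Calls made without it are therefore a description and not a separate test. Without NC 1, the genes split. Mbp (log2 fold change 1.44, SE 0.27, limma adjusted p = 0.00856), Pmp22 (0.80, SE 0.16, limma adjusted p = 0.0104) and Cnp (0.69, SE 0.18, limma adjusted p = 0.0289) were then higher in PEG-fused grafts, 3 of 8 genes beside 13.7% of all genes tested in that fit. Their PEG means were 2.56, 1.76 and 1.62 times the mean of NC 2 and NC 3. Cldn19 had a fold of the same direction that missed the threshold (0.99, SE 0.35, limma adjusted p = 0.0768), and with it 4 of the 8 genes had all PEG-fused grafts above NC 2 and NC 3, beside 30.9% of all tested genes. The other 4 gave values near 0, at 0.16 for Mag (SE 0.69), 0.04 for Prx (SE 0.30), -0.19 for Mal (SE 0.21) and -0.19 for Pmp2 (SE 0.43). No test was made of whether these 4 differ from the 3 that passed. When any other single graft was left out, 0 of the 8 were called.

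**Figure D3:**
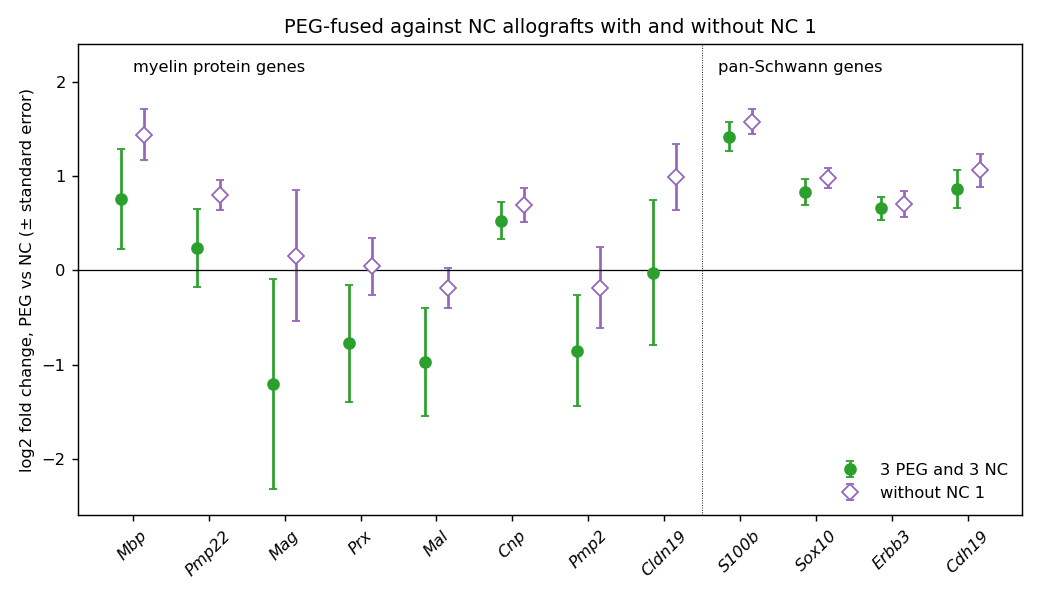
Log2 fold change of PEG against NC grafts (± standard error, limma) for the 8 myelin protein genes and 4 pan-Schwann genes, with all grafts (filled green) and without NC 1 (open purple). Without NC 1 every estimate moves up, by the most for Mag and the least for the pan-Schwann gene Erbb3.

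Genes of other cell types were compared in the same libraries. The summed normalized count of 5 skeletal muscle genes was 523480 in NC 1, 9541 in NC 2 and 184882 in NC 3, against 2433 to 13644 in PEG-fused grafts and 29074 and 5019 in Unop nerves. Among the grafts this sum was highest in NC 1 and next highest in NC 3. Of the myelin genes, Pmp2 was higher in NC 3 (2279) than in NC 2 (1142), whereas Mbp was lower (2152 and 4296). The paper states that muscle adhering to NC grafts could not be fully trimmed off without damage to the graft. The sum of 7 T cell genes, among them Cd3d (PEG against NC -3.84) and Cd3e (-3.53), was 16164 in NC 1, 32208 in NC 2 and 20082 in NC 3 and between 1141 and 3510 in PEG-fused grafts, and all 7 were lower in PEG-fused grafts (limma). The 6 adipocyte genes were each highest in PEG 3 within the PEG group, as 6 of the 8 myelin genes were, with sums of 5688, 3833 and 9156. The part of these cell types in the myelin values was not tested.

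**Figure D4:**
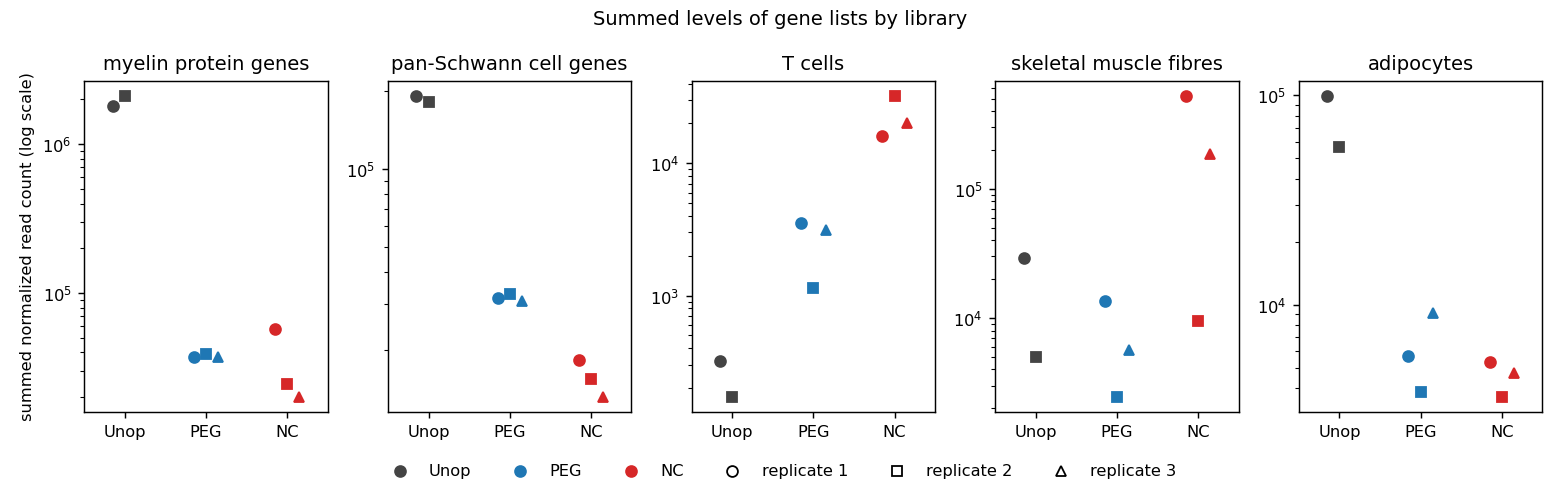
Summed normalized counts (log scale, with its own range in each panel) by library for the 8 myelin protein genes, 4 pan-Schwann genes, 7 T cell, 5 skeletal muscle and 6 adipocyte genes. NC 1 leads the grafts for myelin and muscle genes but lies below every PEG-fused graft for pan-Schwann genes.

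Of the other marker lists, 5 of 7 macrophage genes were lower in PEG-fused than in NC grafts (13.9% of all tested genes were), with Aif1 at -1.17 and Fcgr1a at -1.08. Of the fibroblast genes, 3 of 5 were higher (15% of all tested genes were), with Col1a1 at 1.06 and Col1a2 at 0.98. Of 4 endothelial genes tested, 1 was lower (Kdr, -0.59), and Cdh5 gave 0.39 without passing. Of 5 skeletal muscle genes, 2 were lower (Mylpf at -4.77 and Tnnc2 at -4.72), and of 6 adipocyte genes, 4 were, with Plin1 at -2.42 and Lep at -2.05. CNS myelin is made by oligodendrocytes, whose markers Mobp and Opalin were at 0 to 10.7 normalized counts in all libraries. Other genes of that list were present in Unop nerves, with Hapln2 at 838 and 931, Ermn at 341 and 483 and Mog at 107 and 176. Hapln2 and Ermn fell against Unop together with the myelin protein genes, with log2 fold changes of -6.78 and -6.49 in PEG-fused and -5.77 and -7.42 in NC grafts. Between the grafts Mog, named after its values were seen, was higher in PEG-fused ones (0.89), and Hapln2 (-1.01) and Ermn (0.93) did not pass.

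Against Unop nerves, genes of other cell types moved as well. So did many genes in general: of 16478 tested, 10278 in PEG-fused and 11184 in NC grafts had an unadjusted p under 0.05 (limma, either direction). All 6 adipocyte genes fell in both kinds of graft, with a median of -8.35 in PEG-fused and -6.17 in NC grafts, and their sum was 99045 and 56749 in Unop nerves. All 7 T cell genes were higher in both, with medians of 3.50 and 6.92. Of 7 macrophage genes, 6 were higher in PEG-fused grafts (median 2.17) and 7 in NC grafts (median 3.25). Of 5 fibroblast genes, 4 were higher and 1 lower in PEG-fused grafts, and 1 was higher and 1 lower in NC grafts. Of 4 endothelial genes, 2 were lower in PEG-fused and 3 in NC grafts, and 0 of 5 skeletal muscle genes passed in either comparison. The part of these cells in the decrease of the myelin protein genes was not tested.

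The pan-Schwann genes are expressed by Schwann cells whether or not they make myelin. All 4 were higher in PEG-fused than in NC grafts, S100b by 1.42 (SE 0.16, limma adjusted p = 0.000897), Cdh19 by 0.86, Sox10 by 0.83 and Erbb3 by 0.66, and their median of 0.85 stands beside 0.002 for all genes. Against Unop nerves in PEG-fused grafts, S100b (-3.29), Cdh19 (-1.94) and Sox10 (-0.65) fell and Erbb3 gave 0.27 without passing. In NC grafts all 4 fell, with S100b at -4.70, Cdh19 at -2.80, Sox10 at -1.48 and Erbb3 at -0.39. The call of Cdh19 between the grafts was lost without PEG 2 (0.77, limma adjusted p = 0.0625). That of Erbb3 in NC grafts was lost without NC 2, NC 3 or Unop 2 (-0.38, -0.35 and -0.18), and without Unop 2 Erbb3 was called higher in PEG-fused grafts than in the remaining Unop nerve (0.48, limma adjusted p = 0.0147). In PEG-fused grafts the log2 fold changes of the 7 strongly lowered myelin genes, from -8.10 to -5.85, were all below that of S100b. In NC grafts those of 6 of them were -6.27 or lower, whereas Pmp2 (-5.00) was close to S100b (-4.70), an order that turned without NC 2 (-4.42 and -4.71). These differences between genes were not tested. Cnp lay between Sox10 and Cdh19 in PEG-fused grafts.

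When the mean log2 level of the 4 pan-Schwann genes was subtracted in each library, the mean of the 8 myelin genes was 2.29 and 2.37 in Unop nerves, -2.73, -2.95 and -2.03 in PEG-fused grafts and -0.10, -1.94 and -1.98 in NC grafts. The grafts lay below intact nerve on this scale as well, and each PEG-fused graft lay below each NC graft, although PEG 3 and NC 3 were close. The difference between PEG and NC was -1.23 (exact permutation test, two-sided p = 0.10, n = 3 per group, the smallest p that this design allows) and -0.61 without NC 1 (exact permutation p = 0.20). Both values include the higher level of the reference in PEG-fused grafts. Its 4 genes were higher there by 0.66 to 1.42, and by 0.70 to 1.58 without NC 1. A gene that is unchanged between the grafts would therefore also lie below 0 on this scale. With all grafts, Mal (-1.91), Prx (-1.72) and Cnp (-0.41) had non-overlapping groups, 3 of the 8 genes, beside 74.4% of all tested genes, since a reference that is higher in PEG-fused grafts lowers most genes there. The count of 3 is thus below the share of genes in general. Relative to the mean of the 4 pan-Schwann genes, Cnp alone of the 8 was higher in grafts than in Unop nerves, at 1.52 ± 0.17 in PEG-fused (SD, n = 3), 1.93 ± 0.06 in NC (SD, n = 3) and 1.00 ± 0.16 in Unop (SD, n = 2). This direction depended on the reference. Against Erbb3 alone, Cnp was lower in grafts than in Unop nerves (-1.15 in PEG-fused and -1.02 in NC grafts), and against Sox10 alone it was -0.23 in PEG-fused and 0.07 in NC grafts, while S100b or Cdh19 alone gave values between 1.06 and 3.30. The group means of the other 7 genes were lower in grafts with each of the 4 references, by the least for Pmp2 in NC grafts against S100b (-0.30). Single grafts could differ. S100b stood at 7649 in NC 1 and at 167369 and 153431 in Unop nerves. In proportion to it, Mag (336) and Pmp2 (6447) were higher in NC 1 than in either Unop nerve.

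**Figure D5:**
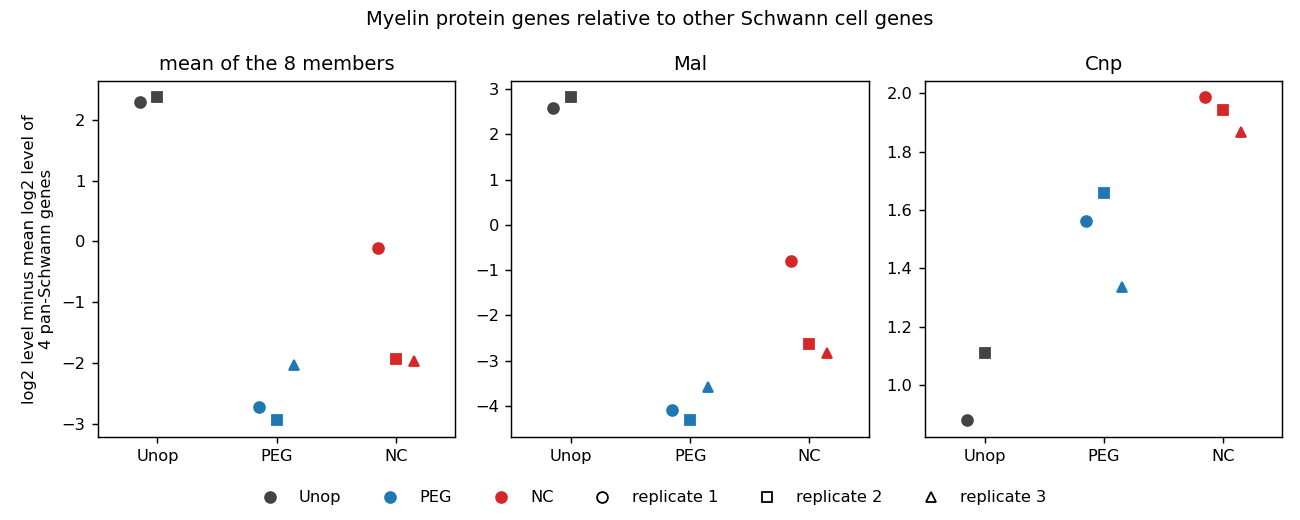
Log2 level minus the mean log2 level of S100b, Sox10, Erbb3 and Cdh19 in each library, for the mean of the 8 myelin protein genes, Mal and Cnp, with a separate axis range in each panel. For the mean and for Mal the Unop nerves are highest, and for Cnp they are lowest, which turns when Erbb3 alone is the reference (-1.15 in PEG and -1.02 in NC against Unop).

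The rest of the myelin programme was described with lists. Of 16 other genes of the sheath and the axon-glia contact, 7 were higher in PEG-fused than in NC grafts and 0 lower, beside 15% and 13.9% of all tested genes. Without NC 1, 14 were higher, and 5 or 6 were when any other single graft was left out (limma). The median of the 16 was 0.80 beside 0.002 for all genes. Among them Nfasc, which encodes the adhesion molecule neurofascin of nodes and paranodes, stood at 263, 247 and 231 in PEG-fused grafts, 89.4, 58.1 and 39.6 in NC grafts and 4750 and 6352 in Unop nerves. It was higher by 2.04 in PEG-fused grafts (SE 0.27, limma adjusted p = 0.00162), and NC 1 did not reach a PEG-fused graft for it. Against Unop nerves, all 16 fell in both kinds of graft.

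Of 10 genes of myelin lipid synthesis, 3 were higher and 1 lower in PEG-fused than in NC grafts, beside 15% and 13.9% of all tested genes. All 10 fell against Unop in both kinds of graft. The calls between the grafts numbered 1 or 2 when a single graft other than NC 1 was left out, 4 without NC 1, and 2 by edgeR. Ugt8, the enzyme that makes galactocerebroside, stood at 2058, 2103 and 1920 in PEG-fused grafts and at 1759, 605 and 444 in NC grafts and was higher by 1.38 (limma adjusted p = 0.0450). Scd, a fatty acid desaturase also used by adipocytes, had the largest estimate (-1.96) and did not pass (limma adjusted p = 0.0914), with 2635, 633 and 2876 in NC grafts.

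Of 10 regulators that favour myelination, 3 were higher and 2 lower in PEG-fused than in NC grafts, beside 15% and 13.9% of all tested genes. The 2 lower calls were both lost without PEG 1, PEG 2, PEG 3 or NC 2. Pou3f2, a transcription factor of promyelinating Schwann cells, was higher by 1.40 (limma adjusted p = 0.0126), and Sox10, which is required throughout the lineage, by 0.83. Egr2, which drives the switch to myelination and was singled out here after its values were seen, stood at 514, 696 and 868 in PEG-fused grafts, 935, 941 and 730 in NC grafts and 3271 and 4398 in Unop nerves. It fell against Unop in both kinds of graft (-2.48 and -2.13), and PEG against NC gave -0.35 (limma adjusted p = 0.236). Of 11 tested regulators that oppose myelination or mark repair Schwann cells, 5 were higher and 2 lower in PEG-fused than in NC grafts. Against Unop nerves, 6 of them were higher and 1 lower in PEG-fused grafts, and 5 were higher and 3 lower in NC grafts. Shh, a ligand induced in Schwann cells after injury, stood at 348, 214 and 390 in PEG-fused grafts, 64.3, 28.0 and 37.6 in NC grafts and 413 and 367 in Unop nerves. It was higher by 2.88 in PEG-fused than in NC grafts (limma adjusted p = 0.00102). Against Unop nerves it was not raised, with -0.34 in PEG-fused grafts (limma adjusted p = 0.458) and -3.22 in NC grafts, where it was called lower. Olig1 gave 1.82 at 3.9 to 43.9 normalized counts in the grafts and did not pass (limma adjusted p = 0.0729).

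The genes whose pattern was most like the mean z-score of the 8 over all 8 libraries were Slc36a2, Akr1c19, Frmd3, Bcas1, Plekha4, Spire2, Mir138-1, AABR07043748.1, Ephx4 and Pcmt1, with Pearson's r between 0.994 and 0.998. Bcas1, known from myelin-forming cells, stood at 10845 and 14068 in Unop nerves, 133, 111 and 221 in PEG-fused grafts and 376, 64.5 and 57.9 in NC grafts, the same order of grafts as Cldn19. The 8 genes themselves had r between 0.874 (Cnp) and 0.998 (Cldn19) with this mean, of which each is a component. These values rest mainly on the gap between Unop nerves and grafts. Over the 6 allografts alone, the most alike were Ndufa10l1, Stip1, RGD1308750, Ccdc91, AABR07019383.1, AABR07043748.1, Mrpl12, Epb41l5, Slc36a2 and Gpr37l1 (r between 0.980 and 0.997), where NC 1 is the highest library for each, and Cnp had the lowest r of the 8 (0.368). Only Slc36a2 and AABR07043748.1 were in both groups of 10.

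The starts of Pmp22 and Mal, which fell strongly in grafts, and of Cnp, which fell least, are shown so that genes with a large and with a small decrease can be set side by side, and because their RefSeq window ends at the outermost annotated start of the gene. Each sequence is the 250 bases before the gene's annotated start in RefSeq (GRCr8, a later build than the one the reads were aligned to), written 5′ to 3′ on the strand of the gene, at chr10:48294682-48294931 (plus) for Pmp22, chr3:135341424-135341673 (minus) for Mal and chr10:86011254-86011503 (plus) for Cnp. Capitals mark matches to any of 5 motifs, searched on both strands. Factors of the SOX family, among them Sox10, bind a core spelled ACAANG here. For the EGR family, to which Egr2 belongs, the core searched was GTGGGCG. General promoter elements were the TATA box, searched as TATAAA, and the CCAAT box, searched by these letters. The last was the GC box, whose letters are GGGCGG and which can overlap the EGR core.
Pmp22: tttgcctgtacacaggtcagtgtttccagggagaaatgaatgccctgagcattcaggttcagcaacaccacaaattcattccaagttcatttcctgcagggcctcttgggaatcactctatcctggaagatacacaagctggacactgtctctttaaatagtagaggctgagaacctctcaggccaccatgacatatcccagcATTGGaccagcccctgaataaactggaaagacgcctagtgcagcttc
Mal: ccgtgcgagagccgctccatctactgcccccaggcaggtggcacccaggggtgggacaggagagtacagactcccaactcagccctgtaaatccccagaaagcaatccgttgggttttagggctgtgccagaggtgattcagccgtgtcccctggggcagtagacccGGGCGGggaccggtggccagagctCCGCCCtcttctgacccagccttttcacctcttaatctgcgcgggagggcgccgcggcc
Cnp: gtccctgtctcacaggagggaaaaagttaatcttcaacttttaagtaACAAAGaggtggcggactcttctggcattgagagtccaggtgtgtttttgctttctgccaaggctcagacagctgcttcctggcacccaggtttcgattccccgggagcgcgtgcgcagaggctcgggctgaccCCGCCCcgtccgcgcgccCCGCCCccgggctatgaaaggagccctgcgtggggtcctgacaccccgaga

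The Pmp22 window holds 1 CCAAT box (47 bases before the start), in reverse orientation, and none of the other motifs. The Mal window holds 2 GC boxes (83 and 59 bases before the start). The Cnp window holds 2 GC boxes (69 and 51 bases) and 1 SOX core (203 bases). Over the windows of 7 of the 8 genes that had one in RefSeq, the EGR core was found only for Cldn19 (140 bases before the start, where it overlaps a GC box at 138), and the SOX core for Cnp, Mag and 1 of 2 windows of Mbp. Of 33469 windows of this length in the rat, 36.9% hold the SOX core, 6.27% the EGR core, 12.9% the TATA box, 34.0% the CCAAT box and 30.5% the GC box. None of the 5 motifs was seen in both Pmp22 and Mal.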

How the data were processed

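RNA-seq libraries of 3 PEG, 3 NC and 2 Unop nerves were used. The deposited signal values are normalized read counts. Per the study's methods, the authors aligned paired-end reads to Rnor_6.0 with TopHat2, counted reads per Ensembl gene with HTSeq, and scaled each library by its DESeq2 size factor (recovered here as 0.800 to 1.12). Strandedness of counting is not given in the sources used here. Further deposited tables hold the authors' fold changes, Wald statistics and p-values, which were not used. All values (100%) were whole reads within 0.001 after rescaling.

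Genes that reached 10 normalized counts in 2 or more libraries entered limma 3.58.1 (trend) on log2(normalized count + 1), which understates changes of low genes, in 1 group-means fit of the 8 libraries. On recovered reads, edgeR 4.0.16 called 4977 genes in PEG against NC and limma 4763. Alternatives were DESeq2 1.42.0, edgeR, TMM rescaling, other filters (none or 50 counts), a pseudocount of 8, a robust fit, a fit of the compared groups alone, a replicate block and each library left out. The limma fit was tested on simulated data (R 4.3.3, Python 3.11.15, SciPy 1.17.1).

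Members and gene lists were chosen with earlier results of these data known. Named are the 8 genes, the pan-Schwann genes, the 2 genes of each other list with the largest absolute log2 fold change in PEG against NC, and the 10 genes most like the 8 over 8 and over 6 libraries. 1 such gene is not reported here. Sums of markers left out Myh4, Myh1 and Pecam1, which had no matching symbol. Transcript lengths were not used, so levels are not compared between genes.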

Additional observations from a re-analysis of the deposited data

How the results depend on the processing

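Against Unop, the calls of the 8 genes kept their direction under all alternatives run, and the only call lost was Cnp in PEG without Unop 2 (-0.71); fits with 1 Unop nerve left assume that it varies like the other groups. DESeq2 gave no adjusted p for Mag in any of the 3 comparisons. In PEG against NC, 1 of 7 genes was called by DESeq2 and 1 of 8 with a replicate block (Cnp in both, the latter at limma adjusted p = 0.0460), and 0 to 3 when libraries were left out in turn, with 3 only without NC 1. Over all genes, DESeq2 called 5540 of 16469 and the fit with the replicate block 4165 of 16478. The replicate numbers are not known to pair the animals: same-numbered PEG and NC libraries had correlated deviations of 0.108, 0.109 and -0.050. Log2 fold changes that turned sign when a library was left out ranged from -0.08 to 0.80 for Pmp22 (-0.01 without NC 2 and -0.083 without NC 3), -2.16 to 0.16 for Mag and -1.23 to 0.041 for Prx (positive without NC 1), and -0.60 to 0.99 for Cldn19 (0.10 without PEG 1, 0.23 without PEG 2 and 0.99 without NC 1). Genes called in all were 4763, and 2749 to 4324 when a library was left out (2749 without PEG 2, 3132 without PEG 3). Fewer samples were then fitted. The share of reads on the 8 genes became 0.128% in PEG and 5.51% in Unop without mitochondrial genes in the total. The difference relative to the pan-Schwann genes was between -1.55 and -0.61 with libraries left out, -1.71 to -0.94 with 1 pan-Schwann gene as the reference, and -1.23 with the replicate block (exact sign-flip p = 0.25, the smallest 3 pairs allow). These values include the higher level of the pan-Schwann genes themselves in PEG-fused grafts. With 1 pan-Schwann gene as the reference, an alternative chosen after seeing the data, Cnp against Unop turned sign with Sox10 (-0.23 in PEG) and Erbb3 (-1.15 in PEG and -1.02 in NC). The Mag values of grafts rest on few reads.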
